A study of Mus musculus with 10 samples.

Results

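The genes described here are the 10 core circadian clock genes Arntl, Clock, Per1, Per2, Per3, Cry1, Cry2, Nr1d1, Nr1d2 and Dbp, chosen by symbol alone from the 24537 genes of a heart RNA sequencing table. All 10 were found. Hearts came from 5 control and 5 iSOD2 mice at 6 weeks of age, bred by crossing C57BL/6J females with iSOD2 males. Both groups were Rosa26-rtTA2+/-, so every mouse carried the reverse tetracycline transactivator under the Rosa26 promoter. The iSOD2 mice were also TRE-SOD2-shRNA+/-, with a hairpin against Sod2, which encodes the manganese superoxide dismutase of mitochondria, placed at the Col1a1 locus behind a tetracycline response element. The littermate controls were TRE-SOD2-shRNA-/-. All dams ate doxycycline chow from conception to birth, so the controls were exposed to doxycycline too. Each genotype had 2 mice from one litter, called A here, and 3 from another, called B. Controls 1, 2 and 3 were male and controls 4 and 6 female, while iSOD2 mice 7 and 9 were male and iSOD2 mice 5, 8 and 10 female. Litter A held controls 1 and 2 and iSOD2 mice 7 and 8.

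The circadian clock is a feedback loop of transcription that runs in nearly every cell, heart muscle included. The proteins ARNTL and CLOCK bind as a pair to E-boxes and switch on the Per, Cry, Nr1d and Dbp genes, whose PER and CRY products then hold the pair back, while the receptors NR1D1 and NR1D2 repress Arntl. Arntl mRNA is therefore high when Dbp, Nr1d1 and Per mRNA are low, and a set of hearts taken at different points of the day spreads along that axis. The hour at which each heart was taken is not given in the sources used here, so a change in the level of a clock gene and a different point of its daily cycle cannot be told apart.

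Promoter sequences were searched for exact matches to motifs of the loop. Of the 10 genes, 9 had a promoter in RefSeq (build GRCm38.p6, 250 bases before to 50 after the start). The motifs searched on both strands were the E-box CACGTG, its variant the E'-box CACGTT, the D-box TTATGTAA or TTACGTAA bound by DBP and its relatives, the ROR element TAGGTCA or TGGGTCA bound by NR1D1 and NR1D2, and the cyclic AMP element TGACGTCA. Of the 9 promoters, 2 held the E-box (7.24% of 27025 mouse promoters), 3 the E'-box (4.77%) and 1 the D-box (1.06%). None of the 9 held the ROR element (6.45%) or the cyclic AMP element (1.88%), as spelled here, within these 300 bases. Arntl, Clock, Nr1d2 and Dbp held none of the motifs. Other spellings and bases outside this window were not searched, so a missing match does not show that a gene lacks the element. The 4 promoters printed here carry the matches, in capitals, of Per1 and Per3, of a cryptochrome gene and of the receptor gene called between litters. The E-box of Per1 began 166 bases before the start, and the 2 D-boxes of Per3 began 205 and 158 bases before it. Cry1 held an E'-box (here read as AACGTG on the gene's own strand) at 79 bases before its start and an E-box at 60, and Nr1d1 an E'-box at 28.
Per1, chr11:69098699-69098998, plus strand: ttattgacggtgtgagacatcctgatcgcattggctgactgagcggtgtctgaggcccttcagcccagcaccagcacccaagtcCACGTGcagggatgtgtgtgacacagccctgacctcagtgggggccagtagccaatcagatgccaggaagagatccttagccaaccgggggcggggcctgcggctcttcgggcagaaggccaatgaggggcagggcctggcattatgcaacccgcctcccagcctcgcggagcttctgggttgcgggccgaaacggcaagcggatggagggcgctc
Per3, chr4:151044616-151044915, minus strand: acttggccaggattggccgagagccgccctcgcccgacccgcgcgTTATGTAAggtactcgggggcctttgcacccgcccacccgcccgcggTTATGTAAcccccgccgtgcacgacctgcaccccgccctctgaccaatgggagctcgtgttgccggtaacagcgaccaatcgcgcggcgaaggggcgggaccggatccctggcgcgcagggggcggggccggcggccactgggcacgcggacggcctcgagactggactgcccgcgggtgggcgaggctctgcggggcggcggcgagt
Cry1, chr10:85185005-85185304, minus strand: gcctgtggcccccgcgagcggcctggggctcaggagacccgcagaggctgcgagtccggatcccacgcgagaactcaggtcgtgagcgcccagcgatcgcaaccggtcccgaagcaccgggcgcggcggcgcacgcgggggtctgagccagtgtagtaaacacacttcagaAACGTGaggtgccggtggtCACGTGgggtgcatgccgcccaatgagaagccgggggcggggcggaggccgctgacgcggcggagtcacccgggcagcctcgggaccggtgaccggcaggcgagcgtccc
Nr1d1, chr11:98775328-98775627, minus strand: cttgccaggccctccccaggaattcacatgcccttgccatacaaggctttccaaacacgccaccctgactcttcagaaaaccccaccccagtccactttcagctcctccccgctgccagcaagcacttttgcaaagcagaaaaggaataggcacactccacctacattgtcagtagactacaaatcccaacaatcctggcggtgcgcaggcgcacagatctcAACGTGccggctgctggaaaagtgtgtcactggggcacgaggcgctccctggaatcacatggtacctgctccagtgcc

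Libraries held between 16448090.5 and 24263085.5 counts over genes. The defining genes of ventricular heart muscle (Myl2, Myl3, Myh6, Tnnt2, Tnni3 and Actc1) were present in every heart, at a summed 1339756 to 1658228 normalized counts. The ventricular sum was 1513268 to 1658228 in litter A and 1339756 to 1482476 in litter B, so the litters did not overlap. No gene of the adipocyte or skeletal muscle lists averaged 50. Sod2, the targeted gene, stood at 10572.8 ± 588.2 normalized counts in the 5 controls against 10780.8 ± 449.3 in the 5 iSOD2 hearts (SD), a log2 difference of 0.03 (SE 0.05, adjusted p 0.806 in DESeq2). Liver transcripts varied from heart to heart, and the summed hepatocyte list ran from 244 to 11163 normalized counts in controls and from 5375 to 22284 in iSOD2 hearts. All 11 hepatocyte genes were higher in iSOD2 hearts and 1, Apoa2, was called by the rule given with the genotype comparison. The atrial heart muscle list (Myl7, Myl4, Sln, Nppa and 1 gene too scarce to fit) summed to 516.6 to 2122.6 normalized counts in controls and 633.9 to 7655.2 in iSOD2 hearts. All 4 fitted atrial genes were higher in iSOD2 hearts and none was called, 3 of them without an adjusted p. Nppa, which encodes a natriuretic peptide, was called by litter (log2 fold change -1.53, adjusted p 0.0493 in DESeq2). The high values came from iSOD2 10, with 372.3 normalized counts of Myl7, 427.9 of Myl4 and 67.9 of Sln, and from iSOD2 8, with 7591.7 of Nppa, and these were also the hearts lowest in Arntl. All 5 erythroid genes were lower in iSOD2 hearts, none of them called, at a summed 60920.5 to 120376.9 in controls and 57501.1 to 83400.3 in iSOD2 hearts. Of 5 endothelial genes, 1 was called by litter, Cdh5, higher in litter B (log2 fold change 0.32, adjusted p 3.56e-07 in DESeq2). A trend of expression with exon length also separated the genotypes, since the slope of log2 level on log2 exon length was 0.00629 to 0.0527 in controls and -0.051 to -0.018 in iSOD2 hearts. The part of these measures in the clock results was not tested except where a value without the trend or without iSOD2 8 and 10 is given.

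The clock genes differed widely in level. Per kb of exon, Dbp was the most abundant at 1458.2 ± 292.6 normalized counts (SD over 10 hearts), ahead of Nr1d2 at 1132.1 ± 85.4 and Nr1d1 at 596.2 ± 147.8. Per3 followed at 310.8 ± 49.1, then Clock at 244.5 ± 40.4, Per1 at 244.4 ± 32.5 and Cry2 at 202.2 ± 22.2. Per2 had 137.3 ± 41.9, Cry1 69.9 ± 10.8 and Arntl 22.1 ± 14.5 normalized counts per kb. Clock and Per1 did not differ beyond their spread, with Clock above Per1 in 4 of 10 hearts. Per3 lay above Clock in 8 of 10 hearts and Per1 above Cry2 in 8 of 10, while Cry2 exceeded Per2 and Cry1 exceeded Arntl in 9 of 10 each. The remaining neighbours in the order kept it in all 10 hearts. Arntl, the scarcest, was also the most variable, with 7.41-fold between its highest and lowest heart, against 2.81-fold for Per2, 2.19-fold for Nr1d1, 1.98-fold for Dbp and 1.30-fold for Nr1d2.

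Among the activators, Arntl (NM_007489, chromosome 7, 113207465 to 113314126, mm10) encodes the partner of CLOCK. In normalized counts per heart, Arntl stood at 75.1, 60.9, 66.5, 42.5 and 170 in controls 1, 2, 3, 4 and 6. It stood at 37.2, 58.0, 22.9, 76.3 and 28.3 in iSOD2 mice 5, 7, 8, 9 and 10. Control 6 had more Arntl than any other heart and iSOD2 8 the least, and the genotypes overlapped. Clock (NM_001289826, chromosome 5, 76209868 to 76304792) encodes the histone-acetylating partner of ARNTL, and its normalized counts were 2506.9, 2657.1, 2776.0, 2036.6 and 2987.9 in the controls. In iSOD2 hearts Clock was at 1726.8, 2332.2, 2042.3, 2580.8 and 2118.9. The same control was highest for Clock as for Arntl, and the groups again overlapped.

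Per1, Per2 and Per3 encode the period proteins that inhibit the activating pair. Per2 (NM_011066, chromosome 1, 91415982 to 91459328) had 629.4, 703.1, 626.9, 944.2 and 468.5 normalized counts in controls 1, 2, 3, 4 and 6, and 1315.6, 714.9, 823.6, 719.1 and 1035 in iSOD2 mice 5, 7, 8, 9 and 10. Every iSOD2 heart lay above every control other than control 4. Per3 (NM_001289878, chromosome 4, 151003655 to 151044665) had 1939.9, 1814.4, 1702.7, 1864.8 and 1284 in controls and 2231.8, 1966.4, 2308.6, 1624 and 1988.9 in iSOD2 hearts. For Per3 only iSOD2 9 overlapped the controls. Per1 (NM_011065, chromosome 11, 69098956 to 69109957), a gene that also answers acutely to hormones, ran from 875.4 to 1279.6 in controls and from 1025.6 to 1411.9 in iSOD2 hearts. Its highest heart was iSOD2 5, as for Per2. Its lowest was control 1, whereas Per2 and Per3 were both lowest in control 6.

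The cryptochromes are the other repressors. Cry1 (NM_007771, chromosome 10, 85131700 to 85185054) ran from 168 to 239 normalized counts in controls and from 178.1 to 263.5 in iSOD2 hearts. Cry2 (NM_009963, chromosome 2, 92403647 to 92434069) ran from 653.6 to 916.1 and from 669.2 to 887.1. In both genes control 6 was the lowest heart of all, and the genotypes covered nearly the same range.

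The nuclear receptors NR1D1 and NR1D2 repress Arntl, and the bZIP factor DBP drives clock output through D-boxes. Nr1d1 (NM_145434, chromosome 11, 98767932 to 98775377) had 2229.3, 1949.3, 1770.5, 1240.6 and 2009.5 normalized counts in controls 1, 2, 3, 4 and 6, and 1237.9, 1893.9, 1765.4, 1312.9 and 1017.1 in iSOD2 mice 5, 7, 8, 9 and 10. Nr1d2 (NM_011584, chromosome 14, 18204056 to 18239106) had 5113.3, 5382.3, 4829.9, 5321.7 and 4328.5 in controls and 5433, 5571.9, 5633.1, 5323.9 and 5477.4 in iSOD2 hearts. For Nr1d2 only iSOD2 9 overlapped the controls, and it lay below control 2. Dbp (NM_016974, chromosome 7, 45705247 to 45710203) had 2530.4, 2270.4, 1877, 2289.5 and 1648.2 in controls and 2889.6, 2704.1, 3264.5, 2138.6 and 2768.4 in iSOD2 hearts. Of the iSOD2 hearts, 4 lay above every control, and iSOD2 9 lay among the controls. The hearts at the extremes were few: control 6 was highest for Arntl and Clock and lowest for 6 of the 10 genes, iSOD2 8 was highest for Per3, Nr1d2 and Dbp, and iSOD2 5 for Per1, Per2 and Cry1.

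**Figure D1:**
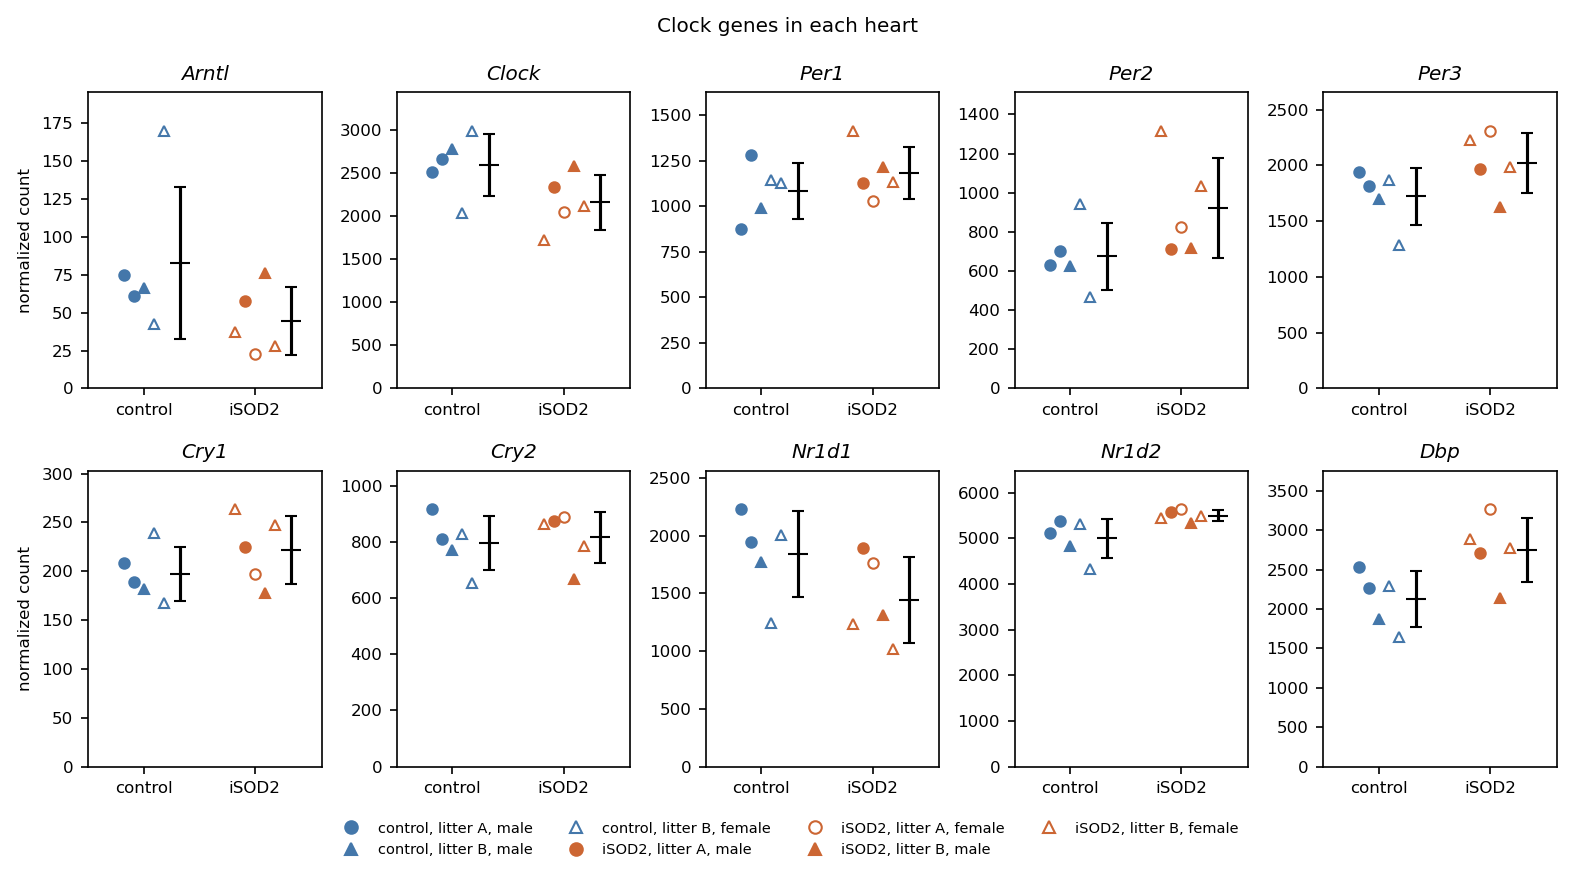
Normalized count of each clock gene in each heart, with controls on the left and iSOD2 mice on the right of each panel, circles for litter A, triangles for litter B, filled for males and open for females, and the group mean with its SD (n = 5) in black. Arntl of control 6, at 170, stands above the other 9 hearts, and the 3 open iSOD2 symbols of Arntl lie between 22.9 and 37.2.

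Genotypes were compared in one fit over all genes. A gene was called at a DESeq2 adjusted p of at most 0.05 with an absolute log2 fold change above 0.25. Dbp was the 1 of the 10 clock genes called, against 281 of 9479 genes overall (2.96%). Dbp was higher in iSOD2 hearts, at 2753.0 ± 406.3 normalized counts against 2123.1 ± 354 in controls (SD, n = 5 each), a 1.30-fold difference or 0.37 on the log2 scale (SE 0.12, adjusted p 0.0403 in DESeq2). The call rested on narrow margins. With edgeR, which called 0 of 17728 genes by genotype, the adjusted p of Dbp was 0.168. The DESeq2 adjusted p was 0.348 with the exon length trend removed (log2 fold change 0.28) and 0.0688 without independent filtering. Leaving out 1 heart kept the log2 fold change of Dbp between 0.30 and 0.45, but the call held in 3 of 10 such fits, those without control 1, control 4 or iSOD2 9. Without both iSOD2 8 and 10, the hearts with the high atrial values, Dbp was at 0.28 (adjusted p 0.296 in DESeq2) and no clock gene was called, against 110 of 6606 genes (1.67%). With litter as a covariate 2 clock genes were called, against 326 of 9474 genes (3.44%). They were Dbp at 0.38 (adjusted p 0.00608 in DESeq2) and Nr1d1, lower in iSOD2 hearts at -0.37 (adjusted p 0.025).

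The other 9 clock genes were not called with genotype alone in the model. Arntl averaged 83.0 ± 50.1 normalized counts over the 5 controls and 44.5 ± 22.2 over the 5 iSOD2 hearts (SD), and its log2 fold change was -0.90 (SE 0.37, unadjusted DESeq2 p 0.0154). DESeq2 gave Arntl no adjusted p because its mean fell under the independent filter at 161 normalized counts. Without that filter the adjusted p was 0.207, and without control 6 the log2 fold change was -0.46. Clock was at -0.26 (SE 0.11, adjusted p 0.148 in DESeq2) and Nr1d1 at -0.35 (SE 0.21, adjusted p 0.357). On the side of the higher values, Per2 was at 0.45 (SE 0.24, adjusted p 0.282 in DESeq2), Per3 0.23 (SE 0.11, adjusted p 0.224) and Nr1d2 0.14 (SE 0.06, adjusted p 0.171). The log2 fold changes of Cry1, Per1 and Cry2 were 0.17, 0.13 and 0.04, each within 1.5 SE of 0. Of the 10 genes, 7 had a fold change above 0 and 3 below, the median was 0.13 against 0.00 over all 17728 genes fitted, and 5 had an unadjusted DESeq2 p under 0.05, as had 2343 of those 17728 genes. No clock gene separated the genotypes without overlap, as 3.75% of all genes did. In a bulk sample such shifts can come from a change in the number of cells of a type or in the RNA per cell. These cannot be told apart from each other or from a different point of the daily cycle.

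**Figure D2:**
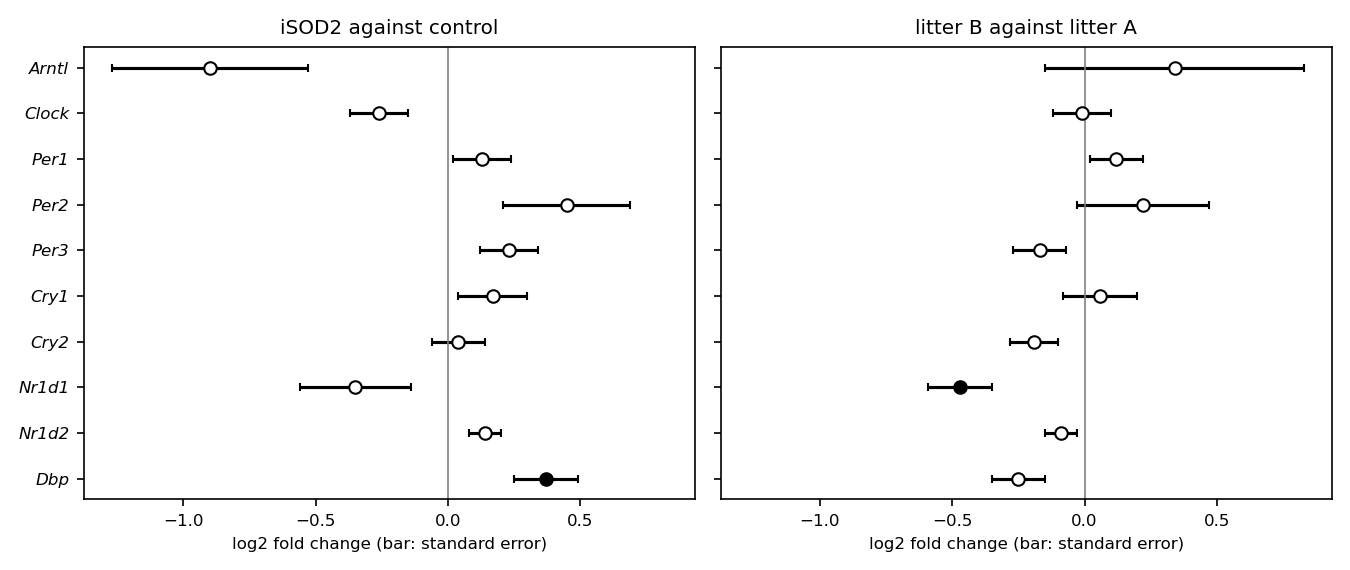
Log2 fold change of each clock gene with its standard error, iSOD2 against control on the left and litter B against litter A on the right, filled where the gene was called. Dbp is the filled point by genotype (0.37) and Nr1d1 the filled point by litter (-0.47), and the widest bars are those of Arntl.

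Litter was compared next, since each genotype was drawn from the same litters. With genotype in the model, Nr1d1 was the 1 clock gene called, against 548 of 15654 genes (3.5%). Nr1d1 was lower in litter B, with 1431.4 ± 376.5 normalized counts over 6 hearts against 1959.5 ± 195.7 over 4 in litter A (SD), which is -0.47 on the log2 scale (SE 0.12, adjusted p 0.00339 in DESeq2). The litters overlapped, since control 6 of litter B reached 2009.5 and iSOD2 8 of litter A stood at 1765.4. All 3 iSOD2 hearts of litter B lay below both iSOD2 hearts of litter A, and control 4 was the lowest control. Across all genes 4.1% separated the litters without overlap, and no clock gene did. The call on Nr1d1 was lost with edgeR (adjusted p 0.0582), with sex as a further covariate (DESeq2 adjusted p 0.21) and without iSOD2 5, 8 or 9, where the adjusted p was 0.0934, 0.154 and 0.0841. Sex was not balanced over the litters. The only female of litter A was iSOD2 8, whereas controls 4 and 6 and iSOD2 5 and 10 of litter B were female. Nr1d1 averaged 1831.2 ± 334.9 normalized counts in males and 1454.1 ± 414.9 in females (SD, n = 5 each), so litter and sex were partly confounded.

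Arntl showed no litter difference beyond its spread, at 70.1 ± 52.2 normalized counts in litter B and 54.2 ± 22.2 in litter A (SD, n = 6 and 4), or 0.34 on the log2 scale (SE 0.49, adjusted p 0.854 in DESeq2). Dbp was at -0.25 (SE 0.10, adjusted p 0.156), and with sex as a further covariate it passed as lower in litter B (log2 fold change -0.34, DESeq2 adjusted p 0.013). Cry2 was at -0.19 (SE 0.09, adjusted p 0.238), Per3 at -0.17 and Nr1d2 at -0.09, while Per2, Per1 and Cry1 were at 0.22, 0.12 and 0.06. In all, 4 clock genes were above 0 and 6 below, with a median of -0.05 against 0.00 over all genes.

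The genotype difference was then read within litters and within sexes. In litter A alone (2 against 2) no clock gene was called, against 121 of 4376 genes (2.77%), and in litter B alone (3 against 3) none, against 63 of 14080 (0.447%). The log2 fold changes pointed the same way in both litters for all 10 clock genes, 7 above 0 and 3 below, though Per1 was at 0.0 in litter A. Dbp was at 0.32 in litter A and 0.42 in litter B, Arntl at -0.76 and -0.98 and Clock at -0.24 and -0.28. The interaction of genotype with litter was passed by no clock gene and by 1 of 17721 genes (0.00564%), with 0 of the 10 at an unadjusted p under 0.05 in either DESeq2 or edgeR.

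Sex gave a wider gap. In males Arntl was at 67.5 ± 7.15 normalized counts in 3 controls and 67.2 ± 12.9 in 2 iSOD2 hearts (SD). In females it was at 42.5 and 170 in the 2 controls and at 29.5 ± 7.19 in the 3 iSOD2 hearts. Among females alone 2 clock genes were called, Arntl (log2 fold change -1.85, DESeq2 adjusted p 0.0364) and Dbp (0.59, adjusted p 0.0132), against 90 of 14987 genes (0.601%). Among males alone none was called, against 150 of 4741 (3.16%), with Arntl at -0.01 and Dbp at 0.12. The interaction itself, a test added after these values were seen, did not pass for any gene (0% of 17725, 210 at an unadjusted DESeq2 p under 0.05 and 487 with edgeR). For Arntl it was -1.84 on the log2 scale (SE 0.64, unadjusted DESeq2 p 0.00382, adjusted p 1), for Per3 0.49 (unadjusted p 0.0146) and for Dbp 0.47 (unadjusted p 0.0271). The large Arntl value of the control females is that of 1 mouse, control 6. Sex itself, with genotype in the model, was passed by no clock gene in DESeq2 (73 of 17379 genes, 0.42%) or edgeR, with 0 of the 10 at an unadjusted p under 0.05 in both. Without control 6, 3 clock genes passed, against 89 of 17597 genes (0.506%), with Arntl at -0.99 (DESeq2 adjusted p 0.023), Clock at -0.34 (adjusted p 0.00428) and Per2 at 0.55 (adjusted p 0.0037) in females against males. Control 4 was then the 1 control female, beside 3 iSOD2 females, so sex and genotype were hard to separate. No clock gene passed by sex when any other single mouse was left out.

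The clock genes were next compared heart by heart, by correlating each gene with Arntl on the log2(normalized count + 1) scale. Pearson's r with Arntl was -0.89 for Per3, -0.86 for Dbp, -0.83 for Nr1d2, -0.81 for Per2, -0.66 for Cry1, -0.61 for Cry2 and -0.12 for Per1. It was 0.82 for Clock, the partner of Arntl in the activating pair, and 0.53 for Nr1d1. The sign was negative for 7 of the 9 and positive for 2, but r was near 0 for Per1 (permutation p 0.756) and was not past the threshold for Cry2 (permutation p 0.0616) or Nr1d1 (permutation p 0.112). The unadjusted permutation p was 0.00097 for Per3, 0.00175 for Dbp, 0.00244 for Nr1d2, 0.00388 for Clock, 0.00591 for Per2 and 0.0352 for Cry1. Adjusted over the 12150 genes correlated, the permutation p was 0.319 for Per3, Dbp and Nr1d2, 0.343 for Clock and 0.379 for Per2, and no clock gene passed. No other gene passed either (0%), although 1248 had an unadjusted permutation p under 0.05, and the lowest adjusted value was 0.243. An absolute r of at least 0.8, a mark set with these values known, was met by 5 of the 9 clock genes and by 170 of the 12150 genes (1.4%).

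Spearman's rho gave the same signs for all 9 genes, with -0.89 for Per3 (permutation p 0.00138), -0.87 for Dbp (permutation p 0.00238), 0.81 for Clock (permutation p 0.0073), -0.79 for Nr1d2 (permutation p 0.00896), -0.78 for Per2 (permutation p 0.0104) and -0.75 for Cry1 (permutation p 0.0175). None passed after adjustment, with values from 0.42 up. For Nr1d1 rho was 0.65 (permutation p 0.0487), for Cry2 -0.50 and for Per1 -0.20. Without the 2 hearts farthest from the median Arntl level, control 6 and iSOD2 8, r held for Per2 (-0.87), Cry1 (-0.84), Clock (0.78) and Nr1d1 (0.77). It was weaker for Per3 (-0.65), Dbp (-0.60), Nr1d2 (-0.49) and Cry2 (-0.16), with unadjusted exact permutation p of 0.0866, 0.119, 0.223 and 0.701. Leaving out the hearts at the ends of Arntl narrows its range, which alone can weaken r, so no conclusion is drawn from this. Without iSOD2 8 and 10, r was -0.90 for Per2 and Per3, -0.83 for Cry1 and Nr1d2, -0.77 for Dbp and 0.84 for Clock, with no adjusted exact permutation p under 0.451.

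Litter B was the litter with enough hearts for a correlation (n = 6, smallest possible exact permutation p 0.00278, not adjusted over genes). Within it, r with Arntl was -0.94 for Per3 (exact p 0.00694), -0.91 for Dbp (exact p 0.00833) and -0.91 for Per2 (exact p 0.0139). Cry1 and Nr1d2 both stood at -0.89 there, Cry2 at -0.83 and Clock at 0.84. Control 6, with 170 normalized counts of Arntl, is 1 of these 6 hearts, and r within litter B was not computed without it. Litter A, with 4 hearts, was too small for one. Nr1d1 stood apart from its paralog in both directions. Its r with Arntl was 0.89 within litter B (exact p 0.0125) and 0.77 once genotype and litter means were taken out, against 0.53 over all hearts, while Nr1d2 was at -0.89 and -0.77. The 4 litter A hearts, with Arntl from 22.9 to 75.1, had at least 1765.4 normalized counts of Nr1d1, whereas the 5 litter B hearts other than control 6, with Arntl from 28.3 to 76.3, had 1017.1 to 1770.5. All 11 hepatocyte genes also had a negative r with Arntl over the 10 hearts (median -0.39), and their part in these relations was not tested. After removal of the exon length trend r was -0.90 for Per3, -0.80 for Dbp, -0.84 for Nr1d2, -0.82 for Per2 and 0.78 for Clock.

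**Figure D3:**
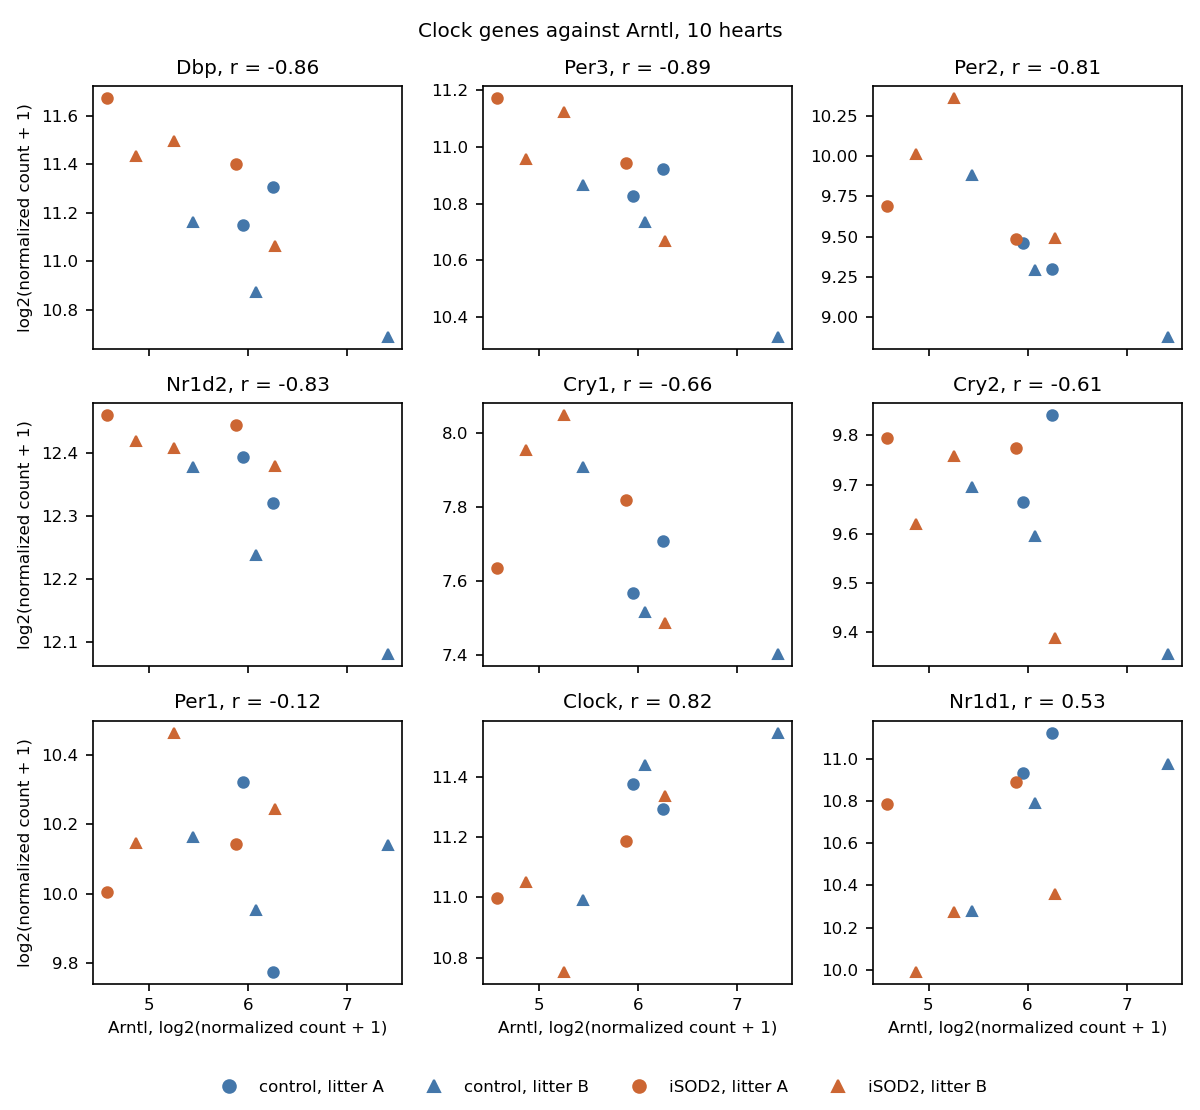
Each clock gene against Arntl over the 10 hearts, both axes as log2(normalized count + 1), blue for controls, orange for iSOD2, circles for litter A and triangles for litter B. Dbp and Per3 fall as Arntl rises (r = -0.86 and -0.89), Clock rises (r = 0.82), and for Nr1d1 the circles of litter A lie above most triangles of litter B.

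The log2 ratio of Arntl was then taken to each of 6 clock genes, Dbp, Nr1d1, Nr1d2, Per1, Per2 and Per3, whose mRNA is known to run opposite in phase to Arntl. In these hearts Nr1d1 and Per1 did not do so, with the r of 0.53 and -0.12 given above. For Dbp the ratio was -5.08, -5.22, -4.82, -5.75 and -3.28 in controls 1, 2, 3, 4 and 6, and -6.28, -5.54, -7.15, -4.81 and -6.61 in iSOD2 mice 5, 7, 8, 9 and 10. The mean over the 6 genes was -4.51 ± 0.85 over the controls and -5.55 ± 0.80 over the iSOD2 hearts (SD, n = 5 each), a difference of -1.03 with overlapping ranges. Without control 6 it was -0.68. By litter the mean ratio was -5.24 ± 0.83 in A and -4.89 ± 1.08 in B (SD, n = 4 and 6). From the lowest to the highest heart it spanned 3.34 on the log2 scale, from iSOD2 8 at -6.44 to control 6 at -3.10, and both ends were female. The next lowest were iSOD2 10 at -6.01, iSOD2 5 at -5.81 and control 4 at -5.38, all female, while the 5 males lay between -5.02 and -4.45. All 6 ratios share Arntl, whose SD over the 10 hearts was 0.83 on the log2 scale against 0.11 to 0.42 for the other genes, so the order of the hearts is mainly that of Arntl. These ratios were given no test, since they are sums over genes chosen with results known.

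**Figure D4:**
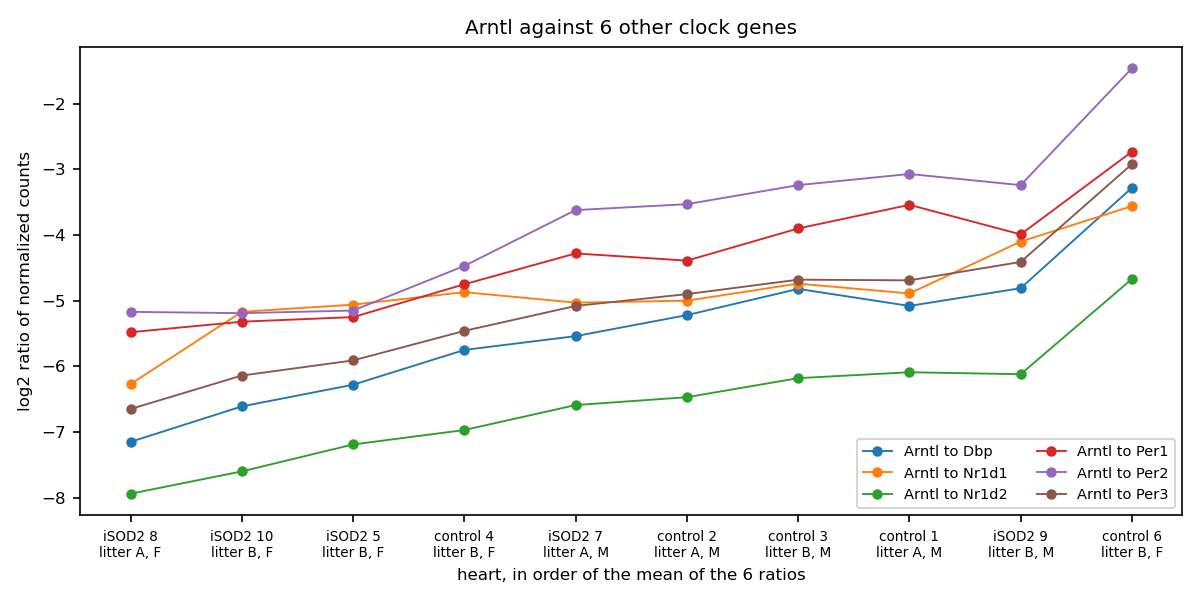
Log2 ratio of Arntl to each of 6 other clock genes in each heart, with the hearts ordered by the mean of the 6 ratios and labelled by litter and sex. The mean ratio runs from -6.44 in iSOD2 8 to -3.10 in control 6. The hearts were placed in that order and all lines share Arntl, so that they rise together is no result, and the 5 males hold neighbouring places between the 4 low females and control 6.

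Several of these genes shared exon bases with a gene on the opposite strand. The libraries were made with a stranded kit, but the counting command named no strand option. Which strand was counted was not tested, so it is not known whether reads of the opposite gene entered these counts. Dbp shared 539 bases with Sphk2, a sphingosine kinase gene, which is 19.0% of the 2834 exon bases of all its annotated transcripts. Nr1d1 shared 263 bases (8.55% of 3077) with Thra, a thyroid hormone receptor gene. The single transcripts counted were shorter, at 1672 exon bases for Dbp and 2755 for Nr1d1. The share within those transcripts was not computed and can be larger. Sphk2 was at 0.23 by genotype (SE 0.10, adjusted p 0.166 in DESeq2) and -0.23 by litter (SE 0.08, adjusted p 0.0751), in the same directions as Dbp and not called. Thra was at -0.07 by genotype and -0.12 by litter (SE 0.07, adjusted p 0.496 in DESeq2), against -0.47 for Nr1d1. Each neighbour had the same sign of r with Arntl as the clock gene beside it. The r of Sphk2 with Arntl was -0.72 over the 10 hearts (permutation p 0.0186, adjusted 0.437), against -0.86 for Dbp. The r of Thra was 0.71 over the 10 hearts (permutation p 0.0219, adjusted 0.438), 0.97 within litter B (exact p 0.00556) and 0.90 once genotype and litter means were taken out, above the 0.53, 0.89 and 0.77 of Nr1d1. How far shared reads enter these values was not tested. Cry2 shared 295 bases (4.67%) with D930015M05Rik, which averaged 71.6 normalized counts. Dbp also lies on chromosome 7 near genes that differed sharply by litter, of which the nearest called was Tead2 at 472 kb and the largest Slc17a7 (log2 fold change -4.11) at 529 kb. Of 61 genes within 1 Mb of Dbp with a mean of at least 50, 11 were called between litters, 10 of them lower in litter B, but of the 19 within 0.25 Mb none was.

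The wider clock machinery was read from lists typed from general knowledge. Of 11 other clock transcription factors, none was called by genotype, 8 were above 0 and 3 below, and the median log2 fold change was 0.07. Ciart, a repressor of the ARNTL and CLOCK pair, averaged 214.7 ± 52.3 normalized counts over controls and 337.8 ± 117.5 over iSOD2 hearts (SD, n = 5 each), or 0.65 on the log2 scale (SE 0.29, adjusted p 0.158 in DESeq2). Tef and Hlf, the PAR bZIP relatives of Dbp, were at 0.33 (SE 0.14, adjusted p 0.131) and 0.17. Arntl2, the paralog of Arntl, was at 0.44 and Npas2, the paralog of Clock, at -0.36, both too scarce for an adjusted p. By litter 1 of the 11 was called, Rorb, a receptor of the ROR family, which had 67.8 to 85.9 normalized counts in litter A and 36.8 to 56.4 in litter B with no overlap (log2 fold change -0.77, SE 0.18, adjusted p 0.00193 in DESeq2). Bhlhe41 and Bhlhe40, which encode the repressors DEC2 and DEC1, were at -0.28 and -0.22 and not called.

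With Arntl, 9 of these 11 factors had a negative r, and 3 passed the mark of 0.8, which 1.4% of all genes correlated met. The 3 were Tef at -0.89, Ciart at -0.87 and Arntl2 at -0.84, while Hlf was at -0.77. Of 12 cardiac clock outputs with enough counts 11 were negative, with Tspan4 at -0.85, Por, the P450 reductase gene, at -0.83, and Dgat2, of triglyceride synthesis, at -0.79. Of 19 kinases, ligases and other regulators of clock proteins, 10 were negative and 9 positive, and none reached 0.8, while 2 had an unadjusted permutation p under 0.05. None of these passed after adjustment over all genes (adjusted permutation p of 0.319 or more). The share of all genes with a negative r was not computed, so no conclusion is drawn from the counts of signs here or above.

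By genotype none of the 20 regulators or the 14 cardiac outputs was called, and their medians were -0.03 and 0.12. The largest values among outputs were Pdk4 at -0.41 (SE 0.30, adjusted p 0.474 in DESeq2) and Klf15, a Krüppel-like factor, at 0.34 (SE 0.20, adjusted p 0.346). By litter none of the 20 or the 14 was called either. The number at an unadjusted DESeq2 p under 0.05 was 2 and 2 by genotype and 2 and 0 by litter. Glucocorticoids and body temperature are signals that can set the clocks of peripheral organs. Of 10 glucocorticoid-responsive genes, 9 were above 0 by genotype and 10 by litter, with a median of 0.31 in each and none called. Fkbp5 had the largest of these values by litter, 0.83 (SE 0.30, adjusted p 0.098 in DESeq2). Of 8 temperature-responsive genes, 1 was called, Cirbp, the cold-inducible RNA-binding protein gene, which was lower in litter B (log2 fold change -0.37, SE 0.09, adjusted p 0.00169 in DESeq2). By genotype none of the 8 was called.

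Outside the 10 clock genes, the gene most opposite to Arntl over the 10 hearts was Psmc4, a proteasome ATPase gene (r = -0.98). Next came Mrpl21, of the mitochondrial ribosome (-0.95), Slc46a3 (-0.93), Fam76a (-0.92) and Gss, the glutathione synthetase gene (-0.91). Psma7, of the proteasome core, was at -0.90, followed by Tef and Thumpd2 at -0.89. The most alike were the matrix protease gene Adamts5 (0.91), the collagen gene Col5a3 (0.91), Map4k5 (0.90), Gab2 (0.90), the aquaglyceroporin gene Aqp7 (0.89), Sppl2b (0.89), Slc41a3 (0.89) and Pcdhga3 (0.88). Psmc4 had the lowest adjusted permutation p of all genes (0.243), and its r was -0.57 with the exon length trend removed, while that of Per3 was -0.90. Tef was the one clock factor outside the 10 in either group.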

How the data were processed

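The authors trimmed reads, aligned them to mm10 with STAR and summed them over exons with HOMER, 1 transcript per gene. The deposited values are estimated counts in steps of 0.5, not normalized, and a column of another unit gives exon length in base pairs. Counts were rounded and genes with under 10 counts over the 10 libraries dropped, which left 17728. Per the methods of the study, DESeq2 1.42.0 (Wald test, median-of-ratios size factors, R 4.3.3) compared genotypes. Litter and sex were tested with genotype in the model, and interactions with both factors. Calls required that the Benjamini-Hochberg adjusted p, taken over every gene tested, be at most 0.05, with an absolute log2 fold change above 0.25 (interactions by adjusted p alone). Correlations with Arntl used the 12150 genes averaging 50 normalized counts or more, by two-sided permutation tests with 100000 resamples, exact for 8 hearts or fewer (smallest p of the resampling 1e-05). Alternatives were edgeR 4.0.16 quasi-likelihood, TMM scaling, other filters, covariates, subsets of hearts, removal of the exon length trend and leaving out each mouse. Scripts were tested on simulated data. No library was a copy of another, since chi-square per degree of freedom was 5.45 or more for each of 45 pairs. Groups share no replicate numbers. Replicates are mice, so errors include counting error. Promoters came from RefSeq and exon overlaps from GENCODE vM21. Genes could be named if they were a clock gene, any gene of the clock lists, a called gene or one of the 4 largest absolute fold changes in another fixed list, one of the 8 highest or 8 lowest correlations with Arntl, Sod2, a gene overlapping a clock gene, or a called gene near Dbp; not all of these are described. The clock genes and all lists were chosen with earlier results of these data known.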

Additional observations from a re-analysis of the deposited data

Results flagged for a closer look

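Arntl of control 6, at 170 normalized counts, lay far from the other 4 controls. Its gap to the next control was 0.744 of the range of the group, above the critical value of Dixon's test for 5 values (0.71). Of 20 groups examined (10 clock genes in each genotype), this was the 1 that passed, and chance gives about 1. The same heart had the highest Clock and the lowest Per2, Per3, Cry1, Cry2, Nr1d2 and Dbp of all 10 hearts.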

How the results depend on the processing

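Dbp kept its call by genotype under TMM scaling, both other count filters, adjusted p alone and covariates for sex and litter. The number of clock genes called by genotype fell from 1 to 0 with edgeR, with the exon length trend removed, without independent filtering, without iSOD2 8 and 10, and in litter A, litter B or males alone. It was 2 in females alone and 2 with litter as a covariate (Dbp and Nr1d1), and 0 to 3 when single mice were left out. The number of all genes called, 281, became 0 with edgeR (2718 at an unadjusted p under 0.05), 577 on adjusted p alone, 123 without the exon length trend, 63 in litter B, 121 in litter A, 110 without iSOD2 8 and 10, 150 in males and 90 in females, and was 166 to 492 when single mice were left out, the highest without control 4 (Clock, Nr1d1 and Dbp then called) and the lowest without control 2. Without iSOD2 9, Clock and Dbp were called. By litter, 548 genes became 365 with edgeR and 300 to 705 without single mice (lowest without control 1, highest without iSOD2 5), and the number of clock genes called went from 1 to 0 with edgeR and 0 to 2 without single mice, 2 without control 4 (Nr1d1 and Dbp) and 0 without iSOD2 8 or 9. With sex as a covariate or without iSOD2 5 the 1 gene called by litter was Dbp in place of Nr1d1. By sex, leaving out single mice gave 0 to 3. The number of clock genes correlated with Arntl after adjustment was 0 under every alternative, and none of the mean ratios moved by 1 SD. The fits without independent filtering, in litter A alone, without iSOD2 8 and 10 and with litter as the one covariate were chosen after seeing the data. The cause of these changes was not tested. Dbp, Clock, Per1, Per2, Cry1, Arntl, Nr1d1 and Nr1d2 kept the direction of their genotype fold change in every alternative run. Of these, Arntl was at -0.01 in males and Per1 at 0.0 in litter A. In males Per3 was at -0.02 and Cry2 at -0.11. The depth limits Arntl most, at 25.5 to 168.5 counts a library. No paired analysis by mouse was possible because the control and iSOD2 hearts came from different mice, and litter, which both genotypes share, entered as a covariate instead.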
